A study of Drosophila melanogaster with 4 samples.

Results

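The genes described here encode the proteins of the cytosolic ribosome in Drosophila melanogaster. They were chosen by symbol: a probe set was taken where its updated gene symbol begins with RpL or RpS followed by a letter or digit, or is sta, and symbols ending in -like and S6 kinases were left out. The rule found 33 genes, each with 1 probe set, among the 14009 probe sets of the array. Of these, 15 belong to the large subunit, 3 to its stalk (RpLP0, RpLP1 and RpLP2) and 15 to the small subunit. In all, 29 of the 33 passed the filter on low signal, among 6201 genes compared. RefSeq lists 88 symbols that meet the rule, and 55 of them, RpS6 and sta included, had no probe set of their own name and were not analysed here. The 29 genes therefore stand for part of the ribosome.

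The study asked what mating, sperm and accessory gland proteins (Acps, secreted in the male reproductive tract and passed on in the seminal fluid) change in female gene expression. Whole Canton S females, an inbred wild-type stock, were aged 3 to 4 days at 25 °C and were either kept as virgins or frozen 1 to 3 h after mating. Wild-type-mated females had Canton S partners, which pass sperm and Acps. Spermless-mated females had sons of tudor as partners, born to bw sp tud1 mothers, which pass Acps without sperm. DTA-E-mated females had transgenic partners in a Canton S background that make no sperm and no Acps in the main cells, 96% of the secretory cells of the gland; Acps of the remaining cells may still be passed. Virgin females were the unmated state. The males' genotypes are the only thing that differed between the 3 mated groups by label. For each group 50 flies were split into 2 RNA extractions and run on 4 Affymetrix Drosophila chips, and the table holds 1 column per group. No replicate values were available, so no test could be made and every difference below is a difference between 2 columns.

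A ribosome is made of RNA and of about equal numbers of copies of each ribosomal protein, and the genes for these proteins are therefore usually expressed together and at a high level in every tissue. Their messenger RNAs are controlled largely at translation, through the TOR kinase, so that transcript and protein levels can differ. In flies, loss of 1 copy of many of these genes gives the Minute phenotype of slow development and short bristles. In the female, the ovary is a large consumer of ribosomes, since nurse cells load them into the egg.

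The deposited values are logarithms of unstated base. They were read as log2, and with natural logarithms each fold would be larger. Unless given as deposited, levels are centred, that is, shifted so that the 4 columns have the same median over the probe sets that passed the filter; the largest such shift relative to virgin females was 0.048. Values of different probe sets were not compared as transcript amounts, because probe sets bind with different strength. The mean of 9 hybridization controls was 1.5 in the wild-type-mated column, 1.41 in the spermless-mated, 1.29 in the DTA-E-mated and 1.37 in the virgin column, a wider span than that of any ribosomal protein gene, and its part in the differences below was not tested. The 3' minus 5' difference of the eIF-4a control, a sign of RNA integrity, was 1.78 in the wild-type-mated, 1.80 in the spermless-mated, 1.97 in the DTA-E-mated and 1.70 in the virgin column. Yp1, a yolk protein gene that marks adult females, had values of 5.57 in the wild-type-mated, 5.55 in the spermless-mated, 5.53 in the DTA-E-mated and 5.65 in the virgin column.

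The ribosomal protein probe sets lay at the bright end of the array. As deposited, the 29 compared genes had medians of 4.71 in the wild-type-mated, 4.75 in the spermless-mated, 4.69 in the DTA-E-mated and 4.70 in the virgin column, where the columns reached 5.56, 5.55, 5.56 and 5.67 at most. A value of 5 or more was reached by 9 of the genes in each column, among 26 to 30 probe sets of the array. How far the arrays still respond in proportion at such a signal was not tested. Of the probe sets at 4 or more, 54 to 56 in each column had no single gene symbol in the annotation used here. Below the rest lay RpL28, RpS29 and RpL37-2, and under the filter the paralogs RpL10Aa, RpS10a, RpS19b and RpS28a.

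**Figure D1:**
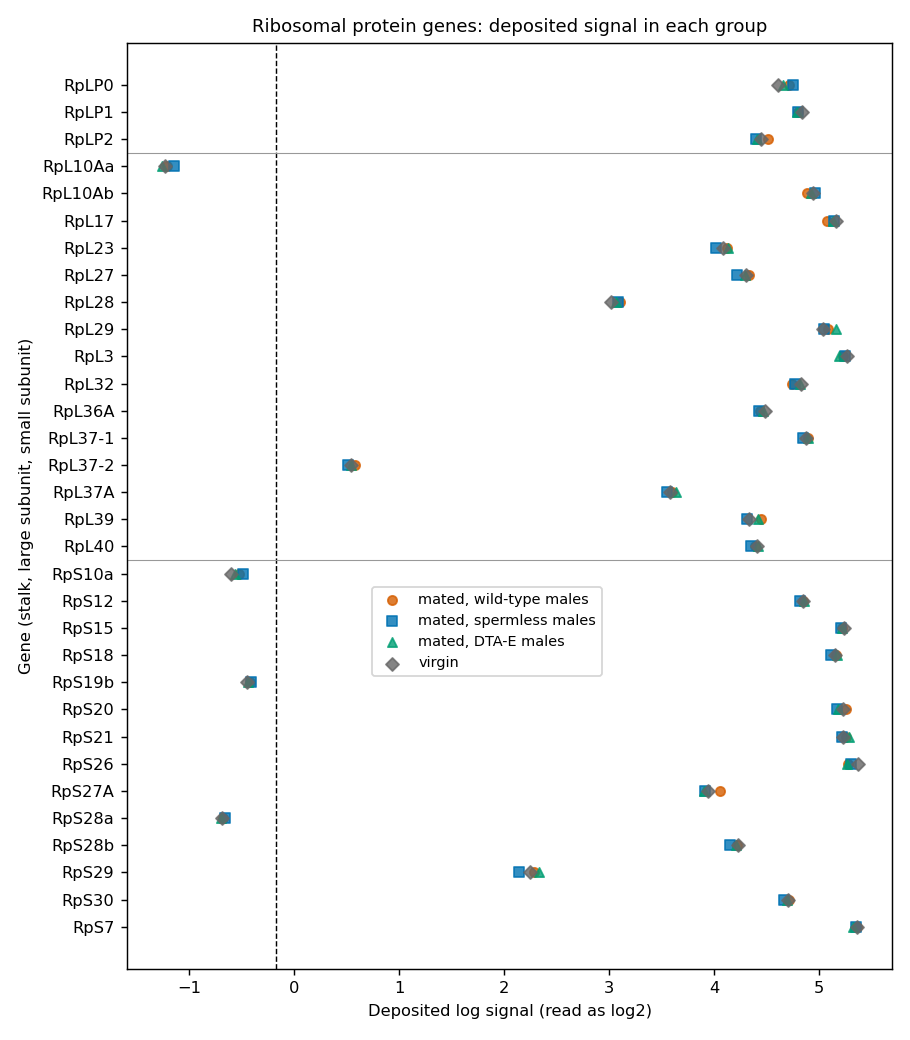
Deposited log signal (read as log2, horizontal axis) of 32 of the 33 ribosomal protein genes (vertical axis; stalk, large and small subunit), with 1 symbol per group; the dashed line is the filter at -0.18. For each gene the 4 groups lie close together, and 4 genes lie left of the filter.

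With the values read as log2, no ribosomal protein gene differed by as much as 1.2-fold between any of the 4 groups. With natural logarithms 1 gene would, RpLP0, at 1.21-fold between spermless-mated and virgin females, and 20.7% of all genes would have a range past 1.2-fold. The range of a gene over the 4 columns was 0.018 to 0.19 with a median of 0.084, so that 0 of 29 genes had a range past 1.2-fold (0.263), where 9.8% of all compared genes had one. Over all 6201 genes the median range was 0.12 and the largest 2.96. With 1 column a group this is a description, and the count of 0 also held for the columns as deposited, but after quantile normalization 1 gene, RpS27A, had a range of 0.30. A measure of technical spread is the SD of a difference between probe sets of the same gene, which was 0.079 to 0.093 over 294 genes with several probe sets; it does not cover variation between pools of flies. Depending on the comparison, 2 to 6 of the 29 genes differed by more than that SD, where 27.5% to 36.2% of all genes did.

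Which group was highest depended on the scaling. In centred values the wild-type-mated column was the highest of the 4 in 11 genes (29.2% of all compared genes), the spermless-mated in 9 (22%), the DTA-E-mated in 5 (26.9%) and the virgin in 4 (21.9%). The DTA-E-mated column was the lowest in 10 genes (20.8%) and the virgin in 9 (25.5%). In the columns as deposited, by contrast, the spermless-mated column was the lowest in 17 genes, at a background of 44.9%. The virgin column was the highest in 10, at 28.8%. After quantile normalization the wild-type-mated column was the highest in 15 genes (31.8% of all genes). The spermless-mated column was the lowest in 16 (29.9%). Some genes had equal values in a pair of columns in that setting. In centred values every mated column lay above the virgin column in 9 of the 29 genes (25.5% of all genes). All mated columns lay below it in 4 (21.9%), among them RpL32, RpL36A and RpS26. As deposited the virgin column was the lowest in only 3 genes, at a background of 16.2%. Whole flies were measured, so fewer cells of a type and less RNA per cell cannot be told apart in any of these values.

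**Figure D2:**
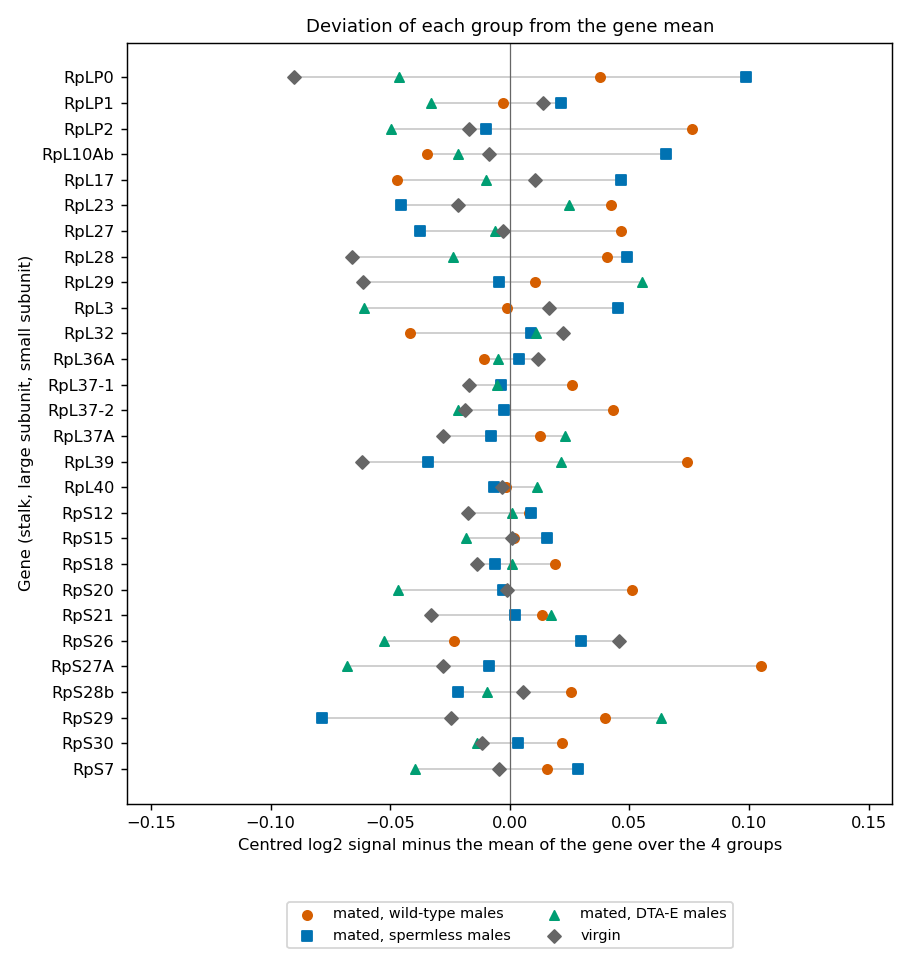
Centred log2 signal of each group minus the gene's own mean over the 4 groups (horizontal axis) for 28 of the 29 compared genes (vertical axis), with 1 symbol per group and a line over the range. The widest range is that of RpLP0 (0.19) and the groups follow no common order down the genes.

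The stalk of the large subunit, which recruits elongation factors to the ribosome, is built from RpLP0 as its base and dimers of RpLP1 and RpLP2. RpLP0 had values of 4.72 in wild-type-mated, 4.78 in spermless-mated, 4.64 in DTA-E-mated and 4.59 in virgin females. All mated columns were above the virgin column. In centred values the difference of 0.19 between spermless-mated and virgin females, 1.14-fold, was the largest of any ribosomal protein gene in any comparison. As deposited RpLP0 had a range of 0.14, and the widest range was that of RpS29 (0.19). After quantile normalization the widest was that of RpS27A (0.30). RpLP2 had values of 4.52 in wild-type-mated, 4.43 in spermless-mated, 4.39 in DTA-E-mated and 4.42 in virgin females, so that the wild-type-mated column stood above the other 3. RpLP1 had values of 4.80 in wild-type-mated, 4.83 in spermless-mated, 4.77 in DTA-E-mated and 4.82 in virgin females. Its range of 0.054 was below the SD between probe sets. In centred values RpLP1 shared its highest column with RpLP0 and its lowest with RpLP2. The 3 stalk genes thus had their highest centred value in 2 different columns. As deposited RpLP1 was highest in virgin females, at 4.84, and RpLP2 was lowest in spermless-mated females, at 4.40.

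Among large subunit genes, RpL39 codes for a very small protein that lines the tunnel through which the new chain leaves. It had values of 4.45 in wild-type-mated, 4.34 in spermless-mated, 4.40 in DTA-E-mated and 4.31 in virgin females, with the wild-type-mated column on top. RpL17, another protein of the exit tunnel, had the opposite extreme, at 5.08 in wild-type-mated, 5.17 in spermless-mated, 5.12 in DTA-E-mated and 5.14 in virgin females. RpL3, which reaches towards the peptidyl transferase centre, had 5.23 in wild-type-mated, 5.28 in spermless-mated, 5.17 in DTA-E-mated and 5.25 in virgin females. The DTA-E-mated column was the low one for RpL3, whereas for RpL29 it was the high one. RpL29 had 5.09 in wild-type-mated, 5.08 in spermless-mated, 5.14 in DTA-E-mated and 5.02 in virgin females. RpL28 had 3.11 in wild-type-mated, 3.12 in spermless-mated, 3.04 in DTA-E-mated and 3.00 in virgin females, the virgin column being lowest. RpL23, on the subunit interface where the anti-association factor eIF6 binds, had 4.13 in wild-type-mated, 4.04 in spermless-mated, 4.11 in DTA-E-mated and 4.07 in virgin females. RpL27 was similar in order at its ends, with 4.33 in wild-type-mated, 4.25 in spermless-mated, 4.28 in DTA-E-mated and 4.28 in virgin females.

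RpL32, also known as rp49, is a common reference gene for quantitative PCR in flies. It had values of 4.74 in wild-type-mated, 4.79 in spermless-mated, 4.80 in DTA-E-mated and 4.81 in virgin females. Its range of 0.064 was below the SD between probe sets, as were those of RpL36A (0.023) and RpL37A (0.051). RpL37A had 3.60 in wild-type-mated, 3.58 in spermless-mated, 3.62 in DTA-E-mated and 3.56 in virgin females. RpL36A codes for a protein near the tRNA exit site. In centred values it had the order of RpL32 at its ends, with the virgin column highest and the wild-type-mated lowest. As deposited its lowest column was the spermless-mated, at 4.42 beside 4.43 in the wild-type-mated.

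Among small subunit genes the widest range in centred values belonged to RpS27A, whose product is made as a fusion with ubiquitin. Its values were 4.06 in wild-type-mated, 3.95 in spermless-mated, 3.89 in DTA-E-mated and 3.93 in virgin females, so the wild-type-mated column stood 0.11 or more above the others. RpL40, the large subunit gene that is likewise fused to ubiquitin, had 4.39 in wild-type-mated, 4.38 in spermless-mated, 4.40 in DTA-E-mated and 4.39 in virgin females. The ranges of the fusion genes were thus 0.17 and 0.018. Whether the probes lie in the shared ubiquitin part was not examined here. RpS29, a small zinc-binding protein, had 2.29 in wild-type-mated, 2.17 in spermless-mated, 2.31 in DTA-E-mated and 2.22 in virgin females. Its lowest column was the spermless-mated, and as deposited its range of 0.19 was wider than the 0.15 of RpS27A. RpS26, which lines the path of the messenger RNA at its exit, had 5.28 in wild-type-mated, 5.33 in spermless-mated, 5.25 in DTA-E-mated and 5.35 in virgin females. RpS20, of the head of the subunit, had 5.25 in wild-type-mated, 5.20 in spermless-mated, 5.16 in DTA-E-mated and 5.20 in virgin females. RpS12, which acts in cell competition in flies, had a range of 0.026, and RpS15, RpS18, RpS21, RpS30, RpS28b and RpS7 had ranges of 0.034, 0.033, 0.050, 0.036, 0.047 and 0.068.

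Several fly ribosomal protein genes have a second copy, often used mainly in the germline. Summed over 16 compared ovary germline genes, the log values came to 27.81 in wild-type-mated, 26.23 in spermless-mated, 27.31 in DTA-E-mated and 26.95 in virgin females. Of the 16 genes, 11 were higher in wild-type-mated than in virgin females, where 52.9% of all genes were. Both copies were measured for RpL10A, a protein of the mobile L1 stalk, and for RpL37 and RpS28. RpL10Ab had 4.89 in wild-type-mated, 4.99 in spermless-mated, 4.91 in DTA-E-mated and 4.92 in virgin females, whereas RpL10Aa, as deposited, had -1.21, -1.15, -1.26 and -1.23 in the same groups. RpL37-1 had 4.90 in wild-type-mated, 4.87 in spermless-mated, 4.87 in DTA-E-mated and 4.86 in virgin females. RpL37-2 had 0.58 in wild-type-mated, 0.54 in spermless-mated, 0.52 in DTA-E-mated and 0.52 in virgin females. For both copies of RpL37 the wild-type-mated column was the highest, by less than 0.079, the smallest SD between probe sets. For RpS28b the values were 4.22 in wild-type-mated, 4.18 in spermless-mated, 4.19 in DTA-E-mated and 4.20 in virgin females. RpS28a, as deposited, had -0.68 in wild-type-mated, -0.66 in spermless-mated, -0.70 in DTA-E-mated and -0.69 in virgin females. RpS10a, as deposited, had -0.52 in wild-type-mated, -0.49 in spermless-mated, -0.56 in DTA-E-mated and -0.60 in virgin females. RpS19b, as deposited, had -0.42 in wild-type-mated, -0.41 in spermless-mated, -0.44 in DTA-E-mated and -0.44 in virgin females. For RpS28 the copies differed in order, the spermless-mated column being the lowest of RpS28b and the highest of RpS28a. The widest range among the 4 copies below the filter was 0.11, that of RpS10a. Whether such similar sequences share part of each other's signal was not tested.

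Mating as a whole was examined in wild-type-mated against virgin females. The ribosomal protein genes were spread closely about a small positive value: 21 of 29 were higher in wild-type-mated females (52.9% of all genes), with a median of 0.033 beside 0.0077 over all genes. In the columns as deposited and after quantile normalization 17 were higher. The median was 0.010 as deposited (-0.016 over all genes) and 0.0088 without the filter (0.0070 over all genes). With a filter at the 75th percentile it was 0.063 (0.013 over all genes). The 29 differences ran from -0.12 to 0.14. RpL39 (0.14), RpS27A (0.13), RpLP0 (0.13) and RpL28 (0.11) had the largest positive differences, and RpS26 (-0.069), RpL32 (-0.064) and RpL17 (-0.058) were among the genes that were lower. By subunit, 9 of 14 large subunit genes, 2 of 3 stalk genes and 10 of 12 small subunit genes were higher. None was past 1.2-fold, where 5.13% of all genes were, and 6 of 29 exceeded the SD between probe sets, where 34% of all genes did.

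Mating without sperm was examined in spermless-mated against virgin females. RpLP0 stood apart at 0.19 and RpL28 followed at 0.11, while the other 27 genes lay between -0.058 and 0.074. In centred values 19 of 29 were higher in spermless-mated females (50.8% of all genes), with a median of 0.015 beside 0.0014 over all genes. As deposited only 4 were, with a median of -0.034 beside -0.047 over all genes. After quantile normalization 6 were, with a median of -0.039 beside -0.0038 over all genes. With a filter at the 75th percentile 25 were, with a median of 0.041 beside 0.0069 over all genes. The direction of the set thus turned with the scaling, and as deposited the median over all genes was negative too. RpS29 was near the low end, at -0.054. None was past 1.2-fold, where 4.19% of all genes were, and 2 exceeded the SD between probe sets, where 36.2% did.

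Mating without sperm or main-cell Acps was examined in DTA-E-mated against virgin females. The set was centred near 0, with 12 of 29 genes higher in DTA-E-mated females (54% of all genes) and a median of -0.0035, beside 0.0068 over all genes; the number higher was 15 after quantile normalization and 18 with the intensity trend removed, with medians of 0.0087 and 0.0070. RpL29 (0.12), RpS29 (0.088) and RpL39 (0.083) were highest, and RpS26 (-0.098) and RpL3 (-0.077) were among the lowest. None was past 1.2-fold, where 2.82% of all genes were, and 3 exceeded the SD between probe sets, where 27.5% did.

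**Figure D3:**
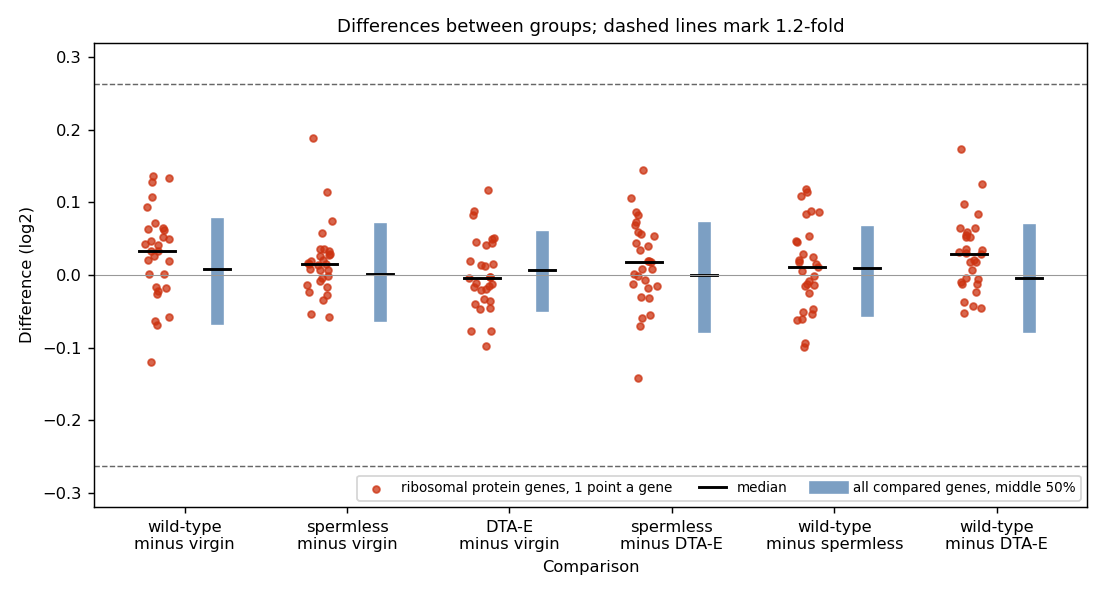
Difference between 2 groups (log2, vertical axis) in each of the 6 comparisons for the 29 ribosomal protein genes (red points, black line at the median) and the middle 50% of all 6201 compared genes (blue bars, black line at the median); dashed lines mark 1.2-fold. Every red point lies between the dashed lines.

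The addition of Acps where no sperm were passed was examined in spermless-mated against DTA-E-mated females. RpLP0 (0.14) and RpL3 (0.11) were the highest and RpS29 (-0.14) and RpL23 (-0.070) the lowest. In centred values 18 of 29 genes were higher in spermless-mated females (49.8% of all genes), with a median of 0.017. As deposited 9 were, with a median of -0.030 beside -0.048 over all genes. With a filter at the 75th percentile 25 were, with a median of 0.059 beside 0.0054 over all genes. None was past 1.2-fold, where 3.42% of all genes were, and 3 exceeded the SD between probe sets, where 35.6% did. The muscle list differed far more between these columns: all 12 compared muscle genes were higher in spermless-mated females, with a median of 0.82. Summed over its 12 genes, the muscle list stood at 8.002 in wild-type-mated, 22.1 in spermless-mated, 11.7 in DTA-E-mated and 13.8 in virgin females. The sum over 14 digestive genes was 18.3 in wild-type-mated, 27.5 in spermless-mated, 26.9 in DTA-E-mated and 31.4 in virgin females, and that over 9 fat body genes was 26.4, 24.4, 26.1 and 25.7 in the same groups. For the 29 ribosomal protein genes the sum was 129.1 in wild-type-mated, 128.8 in spermless-mated, 128.3 in DTA-E-mated and 128.3 in virgin females. These are sums of log values and not transcript amounts. The muscle and digestive sums varied more between the columns than the ribosomal protein sum did. The part of tissue make-up in the small differences of the ribosomal protein genes was not tested.

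The addition of sperm was examined in wild-type-mated against spermless-mated females. RpS29 (0.12), RpS27A (0.11) and RpL39 (0.11) were higher in wild-type-mated females, and RpL10Ab (-0.10) and RpL17 (-0.094) lower. In all, 16 of 29 genes were higher (55.4% of all genes) with a median of 0.011, close to the 0.0097 of all genes. As deposited 22 were higher, with a median of 0.036 beside 0.035 over all genes. After quantile normalization 21 were, with a median of 0.038 beside 0.015 over all genes. None was past 1.2-fold, where 5.43% of all genes were, except that RpS27A was at 0.30 after quantile normalization. The SD between probe sets was exceeded by 5, where 29.5% of all genes exceeded it.

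Sperm and main-cell Acps together were examined in wild-type-mated against DTA-E-mated females. RpS27A (0.17), RpLP2 (0.13) and RpS20 (0.098) were higher in wild-type-mated females by the most, and RpL32 (-0.053) was the lowest. In all, 19 of 29 genes were higher (48.1% of all genes), with a median of 0.029 beside -0.0044 over all genes; as deposited 15 were higher and with the intensity trend removed 23. All 3 stalk genes and 9 of 12 small subunit genes were higher, and 7 of 14 large subunit genes. None was past 1.2-fold, where 2.47% of all genes were, and 3 exceeded the SD between probe sets, where 33.1% did. The 6 comparisons share columns and are not independent of each other.

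Of 39 compared genes of ribosome biogenesis, which make and process ribosomal RNA and assemble the subunits, 36 were higher in DTA-E-mated than in virgin females, where 54% of all genes were. Their median was 0.10, and 35 or 36 were higher under each scaling and without the filter on low signal. NHP2 (0.30), of the particles that guide pseudouridylation of ribosomal RNA, nclb (0.28), needed for ribosomal RNA synthesis, and U3-55K (0.28), of the U3 particle that cleaves it, were past 1.2-fold, as 2.82% of all genes were either way, and Nop56 (0.25), of the methylation particles, was just short of it. Against the same DTA-E-mated females, 5 of 39 were higher in spermless-mated females (49.8% of all genes) with a median of -0.081. In wild-type-mated females 8 of 39 were higher than in DTA-E-mated females (48.1% of all genes), with a median of -0.051. This last number was 6 as deposited, 13 after quantile normalization (median -0.027) and 14 with the intensity trend removed (median -0.026). In wild-type-mated against virgin females 29 of 39 were higher (52.9% of all genes) with a median of 0.055, led by nclb (0.31) and NHP2 (0.28). The DTA-E-mated column also had the largest 3' minus 5' difference of the eIF-4a control, and its part in these values was not tested.

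The mitochondrial ribosomal protein genes, which serve a separate ribosome, had 54 of 64 higher in DTA-E-mated than in virgin females (54% of all genes), with a median of 0.064, where the cytosolic genes had 12 of 29 and -0.0035. Whether these sets differ beyond the spread between pools could not be tested. Initiation factor genes had 20 of 29 higher in DTA-E-mated than in virgin females (median 0.042), where 54% of all genes were, led by eIF3f1 (0.16), of the large factor that binds the small subunit, and eIF1 (0.16), which guards start codon choice. In wild-type-mated against virgin females 11 of 29 were higher (median -0.026), where 52.9% of all genes were, with eIF3g1 at -0.19 and the poly(A) binding protein gene pAbp at 0.11; that median was 0.022 after quantile normalization. Among 6 elongation and termination factor genes, 4 were higher in wild-type-mated than in virgin females (52.9% of all genes). The release factor genes eRF3 (0.15) and eRF1 (0.12) led there. After quantile normalization all 6 were higher in wild-type-mated females, with a median of 0.17 beside 0.0068 over all genes. In DTA-E-mated against virgin females 3 were higher (54% of all genes), and eRF1 (0.16) and eRF3 (0.11) led again. Of 13 growth regulators, 5 were higher in spermless-mated than in virgin females (50.8% of all genes), with a median of -0.025. In DTA-E-mated against virgin females 5 were also higher (54% of all genes), with a median of -0.064. S6k, the kinase of ribosomal protein S6, was higher by 0.16 and 0.14 in these comparisons. In the latter, rictor (-0.17), raptor (-0.15) and Mnt (-0.15) had larger differences, downwards. M1BP, a factor that binds ribosomal protein promoters in flies, was at -0.12 in wild-type-mated against virgin females. There 9 of the 13 were higher (52.9% of all genes). In centred values no gene of the initiation, elongation and termination, growth regulator or mitochondrial lists was past 1.2-fold in any comparison.

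**Figure D4:**
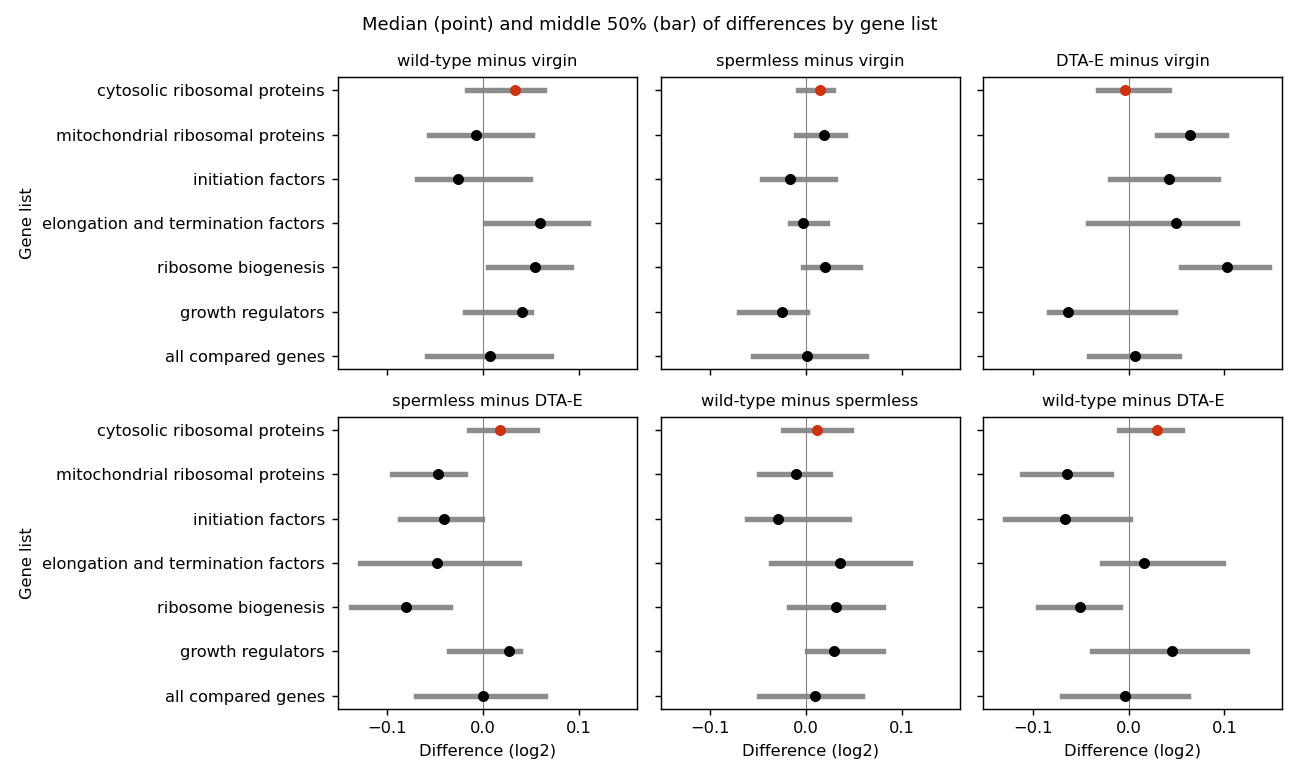
Median (point) and middle 50% (bar) of the differences (log2, horizontal axis) in 6 gene lists and all compared genes (vertical axis), 1 panel per comparison; the cytosolic ribosomal protein genes are in red. In DTA-E minus virgin, ribosome biogenesis (0.10) and mitochondrial ribosomal proteins (0.064) lie to the right and cytosolic ribosomal proteins (-0.0035) at 0.

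The position of the set against 0 changed with the treatment of the columns in 4 of the 6 comparisons. It stayed above 0 in wild-type-mated against virgin and wild-type-mated against spermless-mated females under the settings tried. The medians of the set ran from -0.039 to 0.073 over these comparisons and settings. In wild-type-mated against spermless-mated females the set was at 0.011 beside 0.0097 over all genes in centred values. As deposited it was at 0.036 beside 0.035 over all genes. With a filter at the 75th percentile it was at 0.014 beside 0.016, and without the filter at 0.014 beside -0.0025.

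**Figure D5:**
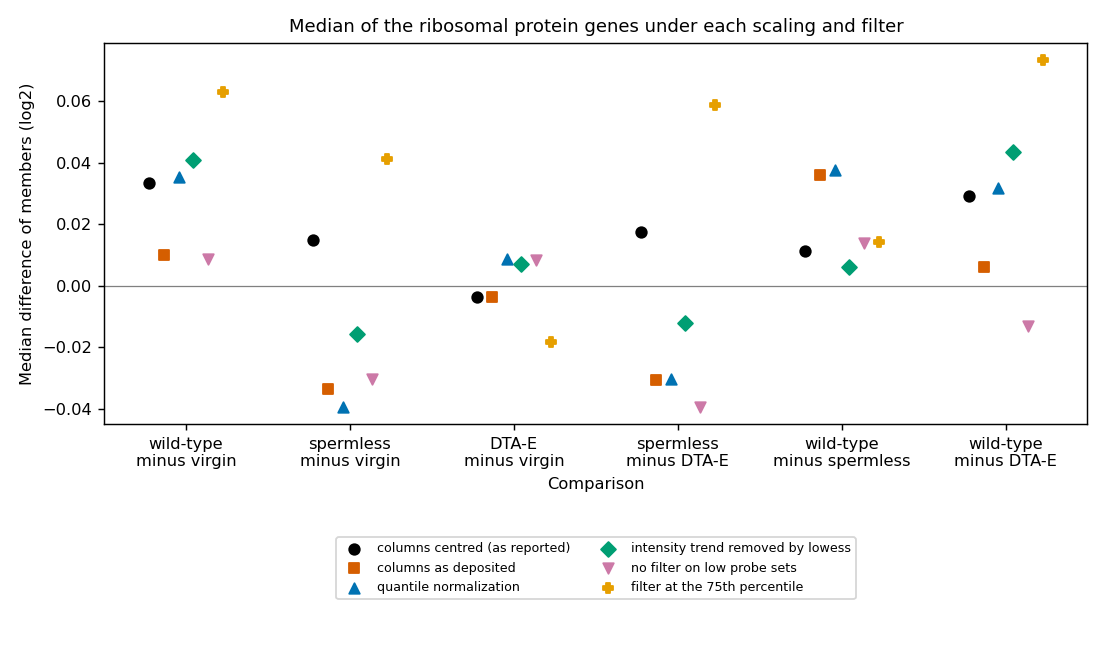
Median difference of the ribosomal protein genes (log2, vertical axis) in each comparison under 6 treatments of the columns and of low probe sets (symbols). In spermless minus virgin and spermless minus DTA-E the medians fall on both sides of 0.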

How the data were processed

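Whole-female RNA of 4 groups was measured on Affymetrix Drosophila GeneChips, with 20 µg of labelled cRNA hybridized for 16 h at 45 °C, per the labels. The deposited table of the authors holds 1 value per probe set and group, read here as log2. Its base, the image analysis and the way 4 chips became 1 column are not given in the sources used here. Column means are near 0.

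GEO's platform annotation gave 12443 probe sets 1 symbol, 326 several and 1196 none. Symbols were brought up to date through RefSeq for 12394 probe sets, and 49 were not found there. Controls (44 probe sets) were dropped. The filter kept 7345 probe sets whose highest column reached the median of the whole table (-0.18). Columns were centred over them, and a gene with several probe sets took their mean. With 1 column a group no test was made, and the number of arrays limits the precision.

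The members and lists were chosen with earlier results of these data known. Any member could be named, and all 4 values were given for the 4 highest and 4 lowest of each comparison, the stalk genes and the members of paralog pairs, except for a compared member that is not reported here and stays only in counts, ranges and medians. Of another list, the 4 compared genes with the largest difference in a comparison could be named; Yp1 was given as a check of the labelled sex and chosen after its values were seen. Alternatives were the columns as deposited, quantile normalization, lowess against intensity (fraction 0.3, with 3 iterations), no filter, a filter at the 75th percentile, the brightest probe set, higher folds and reduced sets of genes. The calculation was tested on simulated data. Python 3.11.15, numpy 2.4.6, pandas 2.3.3, statsmodels 0.14.6 and matplotlib 3.10.9 were used.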

Additional observations from a re-analysis of the deposited data

How the results depend on the processing

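Directions of the set depended on the scaling. In the columns as deposited the median over all genes was -0.047 in spermless-mated against virgin females and -0.048 in spermless-mated against DTA-E-mated females. In spermless-mated against virgin females 19 of 29 genes were higher in centred values, 4 in the columns as deposited and 6 after quantile normalization. The number was 9 with the intensity trend removed, 8 of 33 without the filter and 25 with a filter at the 75th percentile. In spermless-mated against DTA-E-mated females the number was 18, against 9 as deposited and 9 after quantile normalization. It was 11 with the intensity trend removed, 11 of 33 without the filter and 25 with the stricter filter. In DTA-E-mated against virgin females the number was 12, against 19 of 33 without the filter and 9 with the stricter filter. In wild-type-mated against DTA-E-mated females the median was 0.029, against -0.013 without the filter and 0.073 with the stricter filter. The stricter filter had 27 of 29 genes higher in wild-type-mated females. In spermless-mated against DTA-E-mated females the median ran from -0.039 without the filter to 0.059 with the stricter filter. The count past 1.2-fold was 0 in every comparison and setting, except 1 gene, RpS27A, after quantile normalization in wild-type-mated against spermless-mated females. At 1.5-fold and 2-fold it was 0. The brightest probe set gave the same values, since each gene has 1 probe set, and leaving out genes with a paralog kept the sign of all 6 medians. Leaving out the dim RpL28, RpS29 and RpL37-2, a choice made after seeing the data, also kept those signs. No paired analysis was possible because each group has 1 column. The bright signal of most of these probe sets and the single column per group limit what can be seen.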

Other observations

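A probe set annotated to both RpL36A and CG14645 was kept out of the set because it names 2 genes. It had deposited values of 3.55 in wild-type-mated, 3.83 in spermless-mated, 3.86 in DTA-E-mated and 4.01 in virgin females, and a centred difference of -0.44 in wild-type-mated against virgin females. The probe set of RpL36A alone differed by -0.023 in that comparison. A probe set annotated to both RpLP0 and euc lay below the filter, at -0.63 in wild-type-mated, -0.55 in spermless-mated, -0.60 in DTA-E-mated and -0.58 in virgin females. The ribosomal protein relatives that end in -like were not members: RpLP0-like was at 1.12 in wild-type-mated, 1.06 in spermless-mated, 1.26 in DTA-E-mated and 1.04 in virgin females, with the DTA-E-mated column highest, as in most ribosome biogenesis genes.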
